A study of Mus musculus with 15 samples.

Results

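The UDP-glucuronosyltransferases (Ugt), sulfotransferases (Sult) and hydroxysteroid dehydrogenases (Hsd) of the ageing mouse kidney were followed as one set of genes. A gene belonged to the set when its name began with Ugt, Sult or Hsd and a digit, which gave 55 of the 33058 genes measured, namely 20 Ugt, 15 Sult and 20 Hsd genes. Kidney RNA of 15 male C57BL/6 mice (C57BL/6J in the paper) was sequenced with 1 library per mouse, from 5 mice each at 3 months, 12 months and 24 months of age. The labels name no genotype change and no treatment for any mouse, and all were fed standard chow. Mice are named by age and by the replicate number of their labels, 5 to 9 at 3 months, 17 to 21 at 12 months and 31 to 35 at 24 months, and values are listed in that order. The value of a gene is FPKM, the number of fragments per kilobase of transcript relative to all mapped fragments of the library, summed over the annotated transcripts and the new splice forms of the gene. The 55 genes had 194 such transcripts, 135 annotated and 59 new. Aligned sequence ranged from 5.03 to 8.03 Gb per library, and the 3-month libraries (5.03 to 6.13 Gb) were the shallowest as a group.

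The 3 families act on small lipophilic molecules. Ugt enzymes sit in the endoplasmic reticulum and join a sugar, mostly glucuronic acid from UDP-glucuronate, to steroids, bile acids, bilirubin, fatty acids and drugs. Sult enzymes are cytosolic and move a sulfate group from PAPS to phenols, catecholamines, thyroid hormones and steroids. Hsd enzymes oxidise or reduce hydroxyl and keto groups on the steroid skeleton and so switch hormones on or off. In the kidney most conjugation takes place in the proximal tubule, which secretes the products into urine, while Hsd11b2 works in the aldosterone-sensitive distal nephron, where it inactivates corticosterone and so keeps the mineralocorticoid receptor free for aldosterone.

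Sequence decides how well single members can be measured, most of all at the Ugt1a locus. Its 9 genes lie on the plus strand of chromosome 1 (GRCm38), each with a first coding exon of its own, and all splice into the same exons from position 88215044 on. The 735 coding bases of the shared exons were identical in all 9 (GENCODE annotation), and the private coding part held 849 to 870 bases. The junctions are shown because they mark where the sequence shared by all 9 genes begins. At the far end the Ugt1a7c transcript runs on to position 88220002, while those of the others end at 88218997 to 88219004. Lower case is the last 20 bases of the private exon, and capitals are the first 20 bases of the shared exon.
Ugt1a10: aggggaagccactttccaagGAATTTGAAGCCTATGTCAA
Ugt1a9: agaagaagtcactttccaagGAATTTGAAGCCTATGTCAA
Ugt1a8: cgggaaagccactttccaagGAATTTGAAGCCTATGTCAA
Ugt1a7c: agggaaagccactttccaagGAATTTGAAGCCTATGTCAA
Ugt1a6b: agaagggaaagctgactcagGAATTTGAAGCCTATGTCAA
Ugt1a6a: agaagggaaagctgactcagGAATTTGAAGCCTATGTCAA
Ugt1a5: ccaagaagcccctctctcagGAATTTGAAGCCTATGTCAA
Ugt1a2: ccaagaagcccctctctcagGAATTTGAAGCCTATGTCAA
Ugt1a1: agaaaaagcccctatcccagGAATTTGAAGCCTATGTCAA
The junction of Ugt1a6a equalled that of Ugt1a6b, and the junction of Ugt1a5 equalled that of Ugt1a2. The private coding sequences of Ugt1a6a and Ugt1a6b were 97.0% identical and those of Ugt1a9 and Ugt1a10 were 91.2% identical, whereas Ugt1a10 and Ugt1a1 shared 53.5%. The private part made up 28.3% to 42.9% of the main coding transcript of each Ugt1a gene. Reads of the shared exons can therefore be divided wrongly among all 9 genes. Reads of such near copies can also be divided wrongly between genes, so values within these pairs are uncertain. Over the whole coding sequence the same held for Ugt3a1 and Ugt3a2 (93.2% identity), Ugt2b38 and Ugt2b5 (97.0%), Ugt2b37 and Ugt2b5 (94.7%), Hsd3b4 and Hsd3b5 (95.2%), Hsd3b2 and Hsd3b3 (95.1%), Hsd3b6 and Hsd3b3 (94.5%) and Sult2a3 and Sult2a4 (94.4%). Ugt2b34 (74.5% to its closest member, Ugt2b1), Sult1c2 (60.4% to Sult1d1) and Hsd11b2 (51.8% to Hsd17b2) had no near copy in the set.

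Promoter sequences from RefSeq (GRCm38.p6) were found for 45 of the 55 genes. They are shown for 3 genes whose level differed at 24 against 3 months and whose promoter holds a core of steroid receptor sites, and are cut at the first base of any listed transcript. Capitals mark AGAACA or its reverse complement TGTTCT, the core of glucocorticoid, mineralocorticoid and androgen receptor sites. The stretches are chr1:88055161-88055387 on the plus strand for Ugt1a10, chr5:86906938-86907187 on the minus strand for Ugt2b34 and chr3:98510650-98510817 on the minus strand for Hsd3b4.
Ugt1a10: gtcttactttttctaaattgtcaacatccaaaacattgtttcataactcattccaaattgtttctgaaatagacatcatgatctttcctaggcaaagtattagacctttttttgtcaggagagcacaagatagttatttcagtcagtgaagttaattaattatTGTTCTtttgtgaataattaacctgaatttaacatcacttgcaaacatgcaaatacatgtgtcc
Ugt2b34: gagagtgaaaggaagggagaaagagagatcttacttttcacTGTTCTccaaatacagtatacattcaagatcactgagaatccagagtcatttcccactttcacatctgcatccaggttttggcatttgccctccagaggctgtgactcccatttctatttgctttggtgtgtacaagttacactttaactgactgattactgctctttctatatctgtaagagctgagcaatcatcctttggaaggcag
Hsd3b4: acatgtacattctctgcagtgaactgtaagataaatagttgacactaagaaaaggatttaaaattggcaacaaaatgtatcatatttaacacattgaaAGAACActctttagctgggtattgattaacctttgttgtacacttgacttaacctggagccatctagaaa
In the 250 bases before the start, read on both strands, AGAACA was present in 12 of the 45 members (26.7%) against 16.1% of 32851 promoters of all genes. The other motifs searched were TATAAA (4 members, 8.89% against 12.4% of all promoters), GCGTG of the aryl hydrocarbon receptor (10 members, 22.2% against 28.2%), the E-box CACGTG (1 member, Hsd17b7, 2.22% against 6.02%), the D-box TTATGTAA (2 members, 4.44% against 0.819%) and CAAAGTCCA of HNF4 (0 members against 0.384%). A member was counted once when any of its listed promoters held the string, while the background counted single promoters. The shares of members and of promoters are therefore not in the same unit. None of these letter strings contains another. A match describes letters and does not show that a factor binds.

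Levels within the set spanned several orders of magnitude. A mean over all mice of at least 1 FPKM was reached by 31 members and of at least 10 FPKM by 20, while 14 stayed under 0.1 FPKM. The 20 Ugt genes carried 67.6% of the summed FPKM of the set, the Hsd genes 20.7% and the Sult genes 11.7%. Ugt3a2 alone held 29.4%, followed by Ugt2b38 (16.6%), Sult1d1 (9.5%), Ugt3a1 (5.68%) and Ugt1a7c (4.59%). In all 15 mice 40 members were above 0.

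**Figure D1:**
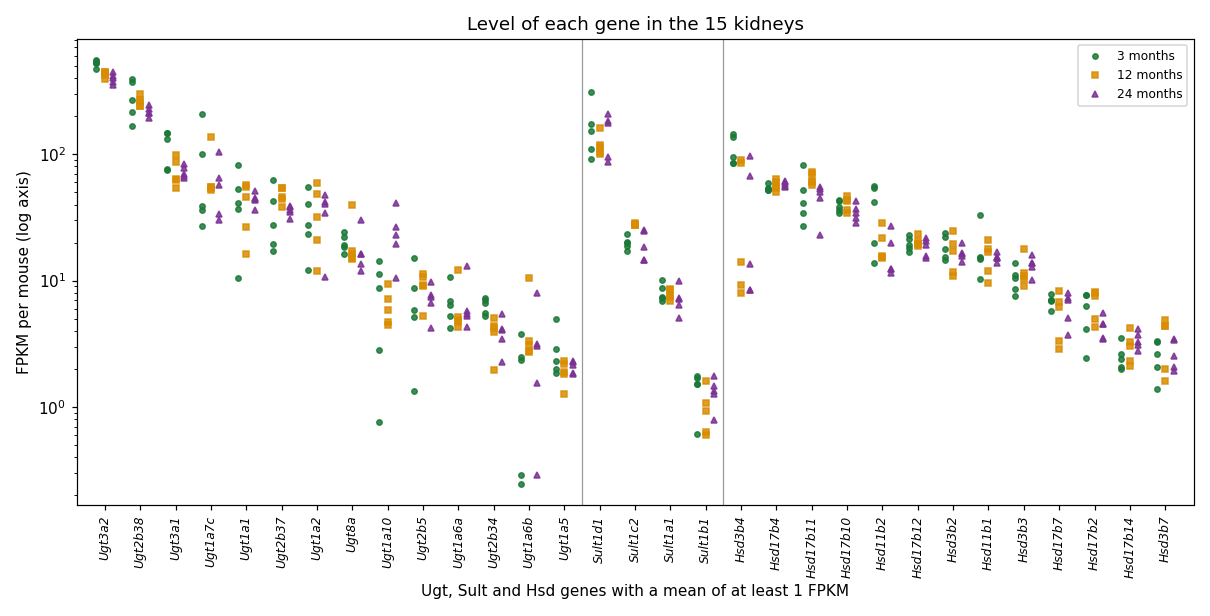
FPKM on a logarithmic axis for the 31 members with a mean of at least 1 FPKM, with 1 point per mouse, coloured by age (3, 12 and 24 months) and ordered by level within Ugt, Sult and Hsd. Ugt3a2 stands highest at means of 525, 427 and 398 FPKM, and only 4 of the 15 Sult genes reach the plot.

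Across the 3 comparisons few members differed between ages. With both directions pooled, the share that passed was close to that of all genes, except at 24 against 12 months (14.5% against 6.43%). By direction the shares differed. At 24 against 3, 12 against 3 and 24 against 12 months 9.43, 7.41 and 10.9% of members were lower, against 3.47, 2.9 and 3.36% of all genes. In the same order 5.66, 5.56 and 3.64% were higher, against 11.4, 11.4 and 3.07%. A gene passed at an unadjusted p under 0.05 in limma on log2(FPKM + 1), a scale that understates changes of low genes, and it was called when its log2 fold change was also beyond 1. At 24 against 3 months 8 of 53 tested members passed (15.1%, against 14.9% of all genes). Of these, 3 were higher (Ugt1a10, Sult2a3 and Hsd17b14; 11.4% of all genes were higher) and 5 were lower (Ugt3a2, Ugt3a1, Ugt2b34, Hsd3b4 and Hsd11b2; 3.47% of all genes were lower). Only Ugt1a10 was called higher (0.258% of all genes) and only Hsd3b4 lower (0.265%). After adjustment over all genes no member had p under 0.05 (1.22% of all genes), and the smallest adjusted p was 0.106, for Sult2a3. The median log2 fold change was 0.01 over the members and 0.02 over all genes. Among the 31 members with at least 1 FPKM, 21 had a negative and 10 a positive value, with a median of -0.11, while all 13446 such genes had a median of 0.05.

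At 12 against 3 months 7 of 54 members passed (14.3% of all genes), with Sult1c2, Sult2a3 and Hsd3b6 higher (11.4% of all genes) and Hsd3b4, Ugt3a2, Ugt3a1 and Ugt2b34 lower (2.9%). Leaving out 1 mouse, Ugt3a2 passed in 1 of 10 fits at 12 against 3 months, the one without replicate 6, Ugt3a1 in 4 (not without replicate 6, 8, 9, 17, 19 or 21) and Sult2a3 in 5 (not without replicate 5, 9, 17, 19 or 20), and Ugt3a1 did not pass with annotated transcripts alone. Sult2a3 also did not pass at 12 against 3 months with 0.1 in place of the added 1 FPKM, or with libraries centred on their median. With each library centred on its median the same comparison gave 14 passing members, 1 higher and 13 lower, where 28.5% of all genes passed. Centring also shifts the values of genes at 0. Among the 13 were Sult1e1, Sult2a4, Sult2a7, Ugt2b1 and Ugt2b35, which were at 0 FPKM in 11 to 14 of the 15 mice. Sult2a7 and Ugt2b1 were at 0 in every 3-month mouse, so for them passing as lower is not a fall in measured level. No member was called higher (0.278% of all genes), Hsd3b4 was called lower (0.221%), and Sult1c2 had the only adjusted p under 0.05 in the set (0.25% of all genes). At 24 against 12 months 8 of 55 passed (6.43% of all genes), with Ugt1a10 and Ugt1a9 higher (3.07%) and Ugt2b38, Ugt2b37, Ugt2a3, Sult1c2, Hsd17b11 and Hsd17b2 lower (3.36%). Ugt1a10 was called higher (0.0651%), and none of the adjusted p-values was under 0.05 (0.0031% of all genes). One fit of all 15 mice gave 5 passing members for that comparison, 3 higher and 2 lower. An F test over the 3 ages passed for 10 of 55 members, where 14.7% of all genes passed, again with no adjusted p under 0.05 (1.47%). The comparisons share mice, so a gene that stands apart at 3 months enters both contrasts with that age.

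**Figure D2:**
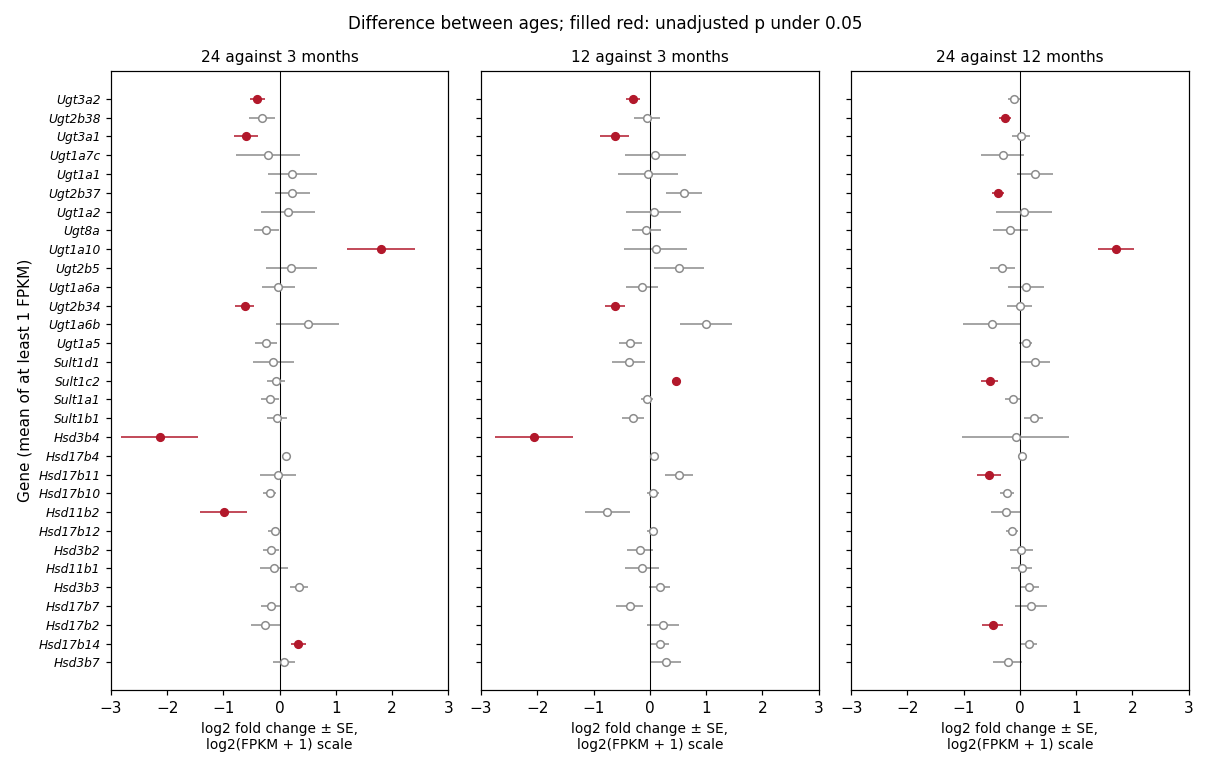
Log2 fold change on the log2(FPKM + 1) scale with its standard error as a bar for the 31 members with at least 1 FPKM, in the 3 comparisons of ages, filled red where the unadjusted limma p was under 0.05. Ugt1a10 lies far to the right at 24 against 3 months (1.81) and Hsd3b4 far to the left (-2.14), while most members lie near 0.

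Ugt3a2, the most abundant RNA of the set, was lower in older kidneys. Ugt3a1 was lower too when assembled splice forms were counted. The human counterparts of these enzymes use N-acetylglucosamine, glucose or xylose rather than glucuronic acid. Ugt3a2 (ENSMUSG00000049152) measured 523, 472, 543, 555 and 531 FPKM at 3 months, 424, 446, 391, 446 and 429 at 12 months and 400, 351, 374, 449 and 418 at 24 months. Every 3-month mouse lay above every older mouse, and the 12- and 24-month values overlapped. The log2 fold change at 24 against 3 months was -0.40 (SE 0.13, limma adjusted p = 0.193), and complete separation in that direction was seen for 0.91% of all genes. With annotated transcripts alone the fold change was -0.81.

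Ugt3a1 measured 75.4, 131, 76.4, 146 and 148 FPKM at 3 months, 64.2, 86.5, 53.9, 99.1 and 62.4 at 12 months and 69.2, 83.3, 65.3, 67.9 and 77.7 at 24 months. Replicates 6, 8 and 9 at 3 months lay above all older mice, whereas replicates 5 and 7 lay within the range of the older groups. The fold change was -0.60 (SE 0.22, limma adjusted p = 0.225). With annotated transcripts alone it was -0.13 and did not pass, so this difference rests on assembled splice forms. The sum of both genes ranged from 599 to 702 FPKM at 3 months, 444 to 545 at 12 months and 434 to 517 at 24 months. The 3-month sums thus did not overlap the older ones. FPKM is scaled by transcript length, so reads exchanged between the 2 genes can change this sum, and their part was not tested.

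Ugt1a10 was the member with the largest rise. Its private exon (chr1:88055411-88056336) is the first of the locus, and Ugt1a10 measured 2.82, 14.3, 0.762, 11.3 and 8.82 FPKM at 3 months, 9.38, 7.13, 4.47, 4.69 and 5.85 at 12 months and 22.9, 26.7, 41.0, 10.6 and 19.4 at 24 months. All 24-month mice exceeded all 12-month mice (0.493% of all genes), while replicate 34 (10.6) lay below the 3-month replicates 6 and 8. The log2 fold change was 1.81 against 3 months (SE 0.60, limma adjusted p = 0.192) and 1.70 against 12 months (SE 0.32, limma adjusted p = 0.581). Its near copy Ugt1a9 was far lower, at means of 0.555 ± 0.903, 0.308 ± 0.275 and 1.56 ± 1.02 FPKM (SD) at 3, 12 and 24 months, and was higher at 24 against 12 months (0.90, SE 0.27, limma adjusted p = 0.689).

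The whole Ugt1a locus did not follow Ugt1a10. The sum of its 9 genes was 179 ± 47.5 FPKM at 3 months, 165 ± 20.3 at 12 months and 175 ± 13.7 at 24 months (SD, n = 5 each), and the ranges overlapped. Ugt1a10 made up 1.59, 7.34, 0.308, 7.53 and 7.25% of that sum at 3 months, 2.41 to 5.95% at 12 months and 14.9, 14.3, 24.1, 5.67 and 10.8% at 24 months. Thus the share of Ugt1a10 in the locus was higher in 4 of 5 old mice than in any younger mouse. At each age the mouse with the highest Ugt1a7c share had the lowest Ugt1a10 share. These were replicates 7 (84.1% and 0.308%), 20 (70.0% and 2.41%) and 34 (56.2% and 5.67%). Shares of the same sum are not independent, and the part of read division in the Ugt1a10 values was not tested. Ugt1a1, the bilirubin-conjugating enzyme, held 27.1 ± 14.9, 25.2 ± 12.3 and 25.2 ± 3.61% at the 3 ages, and Ugt1a2 held 18.9 ± 9.44, 21.3 ± 12.0 and 20.2 ± 8.73%.

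Ugt1a7c, a phenol-conjugating form, varied widely between mice of one age. It measured 101, 27.2, 208, 36.4 and 39.3 FPKM at 3 months, 52.5, 54.2, 54.7, 136 and 55.1 at 12 months and 33.8, 64.5, 30.3, 105 and 56.8 at 24 months, so 1 or 2 mice per age stood above the others. The fold change at 24 against 3 months was -0.21 (SE 0.57, limma adjusted p = 0.880), and it changed sign to 0.18 with annotated transcripts alone. Most of its level came from 2 assembled splice forms. One of these, with 6 exons, reached 207 FPKM in replicate 7 at 3 months, 111 in replicate 20 at 12 months and 71.6 in replicate 34 at 24 months, with a median of 8.97, 0.298 and 0.385 FPKM at the 3 ages.

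**Figure D3:**
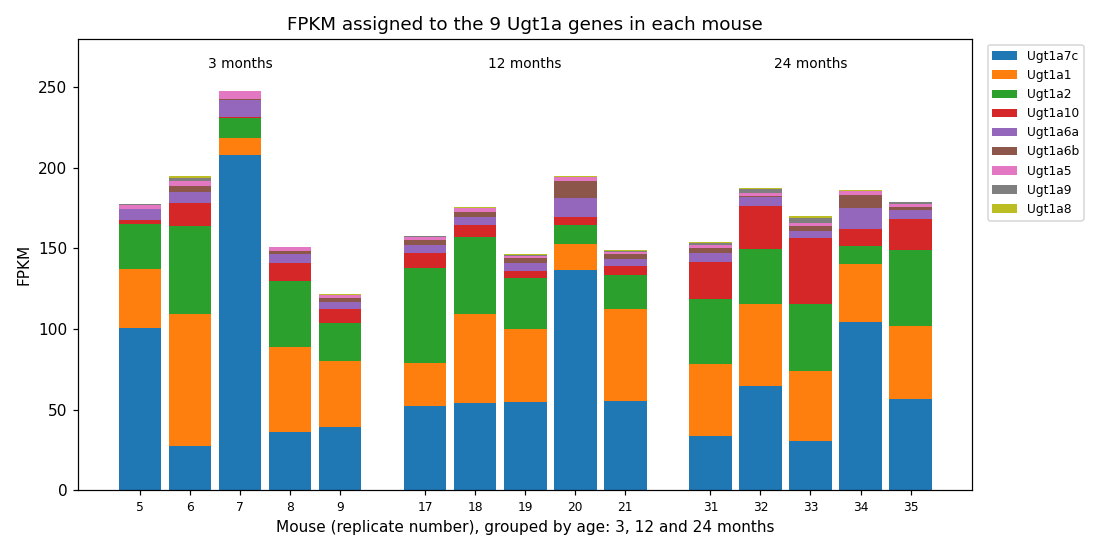
The FPKM of the 9 Ugt1a genes stacked in 1 bar per mouse, with mice grouped by age. The bar heights overlap between ages, while the share of Ugt1a10 in the bar is 4.80 ± 3.55%, 3.88 ± 1.34% and 13.9 ± 6.73% (SD) at 3, 12 and 24 months.

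The Ugt2b enzymes conjugate steroids and bile acids. Ugt2b34 measured 5.30, 6.63, 7.32, 5.57 and 6.99 FPKM at 3 months, 4.18, 4.40, 5.03, 1.96 and 3.90 at 12 months and 2.26, 3.44, 4.07, 5.41 and 4.13 at 24 months. All 12-month mice lay below all 3-month mice (0.667% of all genes), and 1 old mouse, replicate 34, lay within the young range. The log2 fold change was -0.62 at both 12 months (SE 0.19, limma adjusted p = 0.177) and 24 months (SE 0.17, limma adjusted p = 0.118) against 3 months.

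Ugt2b38, the main member of this subfamily, measured 375, 167, 394, 217 and 270 FPKM at 3 months, 243, 300, 259, 267 and 240 at 12 months and 212, 210, 194, 245 and 228 at 24 months. The young values spanned the older ones on both sides. At 24 against 3 months the fold change was -0.31 (SE 0.23, limma adjusted p = 0.591), and at 24 against 12 months it was -0.26 (SE 0.10, limma adjusted p = 0.747). The difference at 24 against 12 months did not pass with TPM, with median centring or in one fit of all 15 mice. It also did not pass without replicate 18, 20, 31 or 33. Ugt2b37 ranged from 17.2 to 63.1 FPKM at 3 months, 38.4 to 54.2 at 12 months and 30.5 to 38.7 at 24 months and was lower at 24 against 12 months (-0.39, SE 0.11, limma adjusted p = 0.670). Ugt2a3, at 0.646 ± 0.191 and 0.396 ± 0.134 FPKM, was lower in that comparison too (-0.24, limma adjusted p = 0.747). Ugt2b37 did not pass in one fit of all 15 mice, and Ugt2a3 did not pass with TPM, with median centring or without replicate 17, 18, 20, 31, 34 or 35.

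Young mice differed among themselves in the same direction for several of these genes. Replicates 5 and 7 at 3 months were high in Ugt2b38 and Ugt1a7c where replicates 6 and 8 were low, and the order was opposite for Ugt3a1, Ugt1a10 and Sult1d1. Odc1 (ornithine decarboxylase, a classical androgen-responsive kidney gene) measured 244, 68.1, 219, 69.4 and 159 FPKM in the 5 young mice, and Slco1a1, an organic anion transporter induced by androgen, measured 67.0, 9.68, 52.9, 20.2 and 17.3. Of 10 androgen-responsive kidney genes, 6 were lower at 24 against 12 months (3.36% of all genes). At 24 against 3 months 0 of 10 were higher (11.4% of all genes) and 0 of 10 lower (3.47%). Their part in the values of the Ugt and Sult genes was not tested.

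Among the sulfotransferases Sult1c2 and Sult2a3 passed in a pairwise comparison of ages. Sult1c2, which sulfates phenols, measured 17.3, 19.8, 20.2, 18.8 and 23.5 FPKM at 3 months, 27.7, 27.5, 28.4, 27.6 and 28.0 at 12 months and 18.5, 14.5, 24.9, 14.5 and 24.6 at 24 months. The 12-month mice lay within a narrow band above all younger and all older mice. The log2 fold change was 0.47 at 12 against 3 months (SE 0.08, limma adjusted p = 0.0495) and -0.54 at 24 against 12 months (SE 0.15, limma adjusted p = 0.673), while at 24 against 3 months it was -0.07 (limma adjusted p = 0.870). Such separation was seen for 3.45% of all genes in the first comparison and for 0.573% in the second.

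Sult2a3, related to the sulfotransferases of hydroxysteroids and bile acids, was near the lower end of what was measured. It had 0.0612 to 0.172 FPKM at 3 months, 0.110 to 0.447 at 12 months and 0.196 to 0.451 at 24 months, so no old mouse overlapped the young ones (3.82% of all genes). Its fold change of 0.21 on the log2(FPKM + 1) scale (SE 0.06, limma adjusted p = 0.106) is small because the level is far under the added 1 FPKM. The most abundant family member, Sult1d1, a sulfotransferase of catecholamines and eicosanoids, measured 111, 310, 92.1, 151 and 173 FPKM at 3 months, 114, 160, 99.5, 118 and 103 at 12 months and 176, 87.2, 95.3, 185 and 209 at 24 months. All 3 ranges overlapped, with fold changes of -0.38 at 12 months and -0.11 at 24 months against 3 months (limma adjusted p = 0.620 and 0.904). Sult1a1, the main phenol sulfotransferase, had means of 8.09 ± 1.28, 7.76 ± 0.707 and 7.15 ± 1.76 FPKM, and Sult1b1, which sulfates thyroid hormones, had 1.43 ± 0.470, 0.972 ± 0.414 and 1.33 ± 0.348. Neither passed in any comparison.

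Hsd3b4 showed the largest difference of the set. The gene lies on chromosome 3 beside the other Hsd3b genes, and in mice the enzyme is known as a kidney 3-ketosteroid reductase rather than a step of hormone synthesis. It measured 94.3, 144, 84.8, 138 and 84.5 FPKM at 3 months, 14.0, 8.05, 90.2, 85.9 and 9.22 at 12 months and 13.5, 8.48, 8.41, 67.6 and 96.0 at 24 months. The values fell into 2 ranges with none between. All 5 young mice, replicates 19 and 20 at 12 months and replicates 34 and 35 at 24 months had 67.6 FPKM or more, and the other 6 mice had 14.0 or less. The log2 fold change was -2.14 at 24 against 3 months (SE 0.68, limma adjusted p = 0.175) and -2.06 at 12 against 3 months (SE 0.70, limma adjusted p = 0.222), and because of the high mice the ages overlapped.

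The summed Hsd3b genes followed it, from 141 ± 29.6 FPKM at 3 months to 74.3 ± 40.3 and 71.8 ± 43.6 (SD) at 12 and 24 months. Hsd3b3 had 10.3 ± 2.43, 11.9 ± 3.37 and 13.3 ± 2.13 FPKM. It did not pass at 24 against 3 months (0.35, SE 0.16, limma adjusted p = 0.356). Hsd3b6, at 0.0188 ± 0.00868 and 0.0885 ± 0.0311 FPKM, was higher at 12 than at 3 months (0.10, limma adjusted p = 0.0805), but did not pass with median centring.

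Hsd11b2 (ENSMUSG00000031891) measured 41.8, 56.4, 19.7, 53.7 and 13.7 FPKM at 3 months, 28.8, 15.3, 15.1, 21.8 and 15.7 at 12 months and 12.3, 19.8, 11.5, 12.4 and 27.0 at 24 months. Replicates 5, 6 and 8 at 3 months lay above all older mice, and replicates 7 and 9 lay among them. The fold change at 24 against 3 months was -0.996 (SE 0.42, limma adjusted p = 0.301), and it no longer passed when replicate 5, 6 or 8 at 3 months or replicate 31, 33 or 34 at 24 months was left out. Aqp2, the water channel of principal cells, measured 61.4, 134, 25.9, 73.7 and 53.2 FPKM at 3 months and 30.1, 30.2, 51.7, 17.9 and 38.4 at 24 months (-0.92, SE 0.41, limma adjusted p = 0.336).

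Of 5 principal cell markers 0 were higher (11.4% of all genes) and 0 lower (3.47%) at 24 against 3 months, with a median of -0.34. At 12 against 3 months 1 of 5, Aqp2, was lower (2.9% of all genes), and the markers had a median of -0.44. Their sum ranged from 68.5 to 195 FPKM at 3 months, 60.1 to 89.6 at 12 months and 52.5 to 95.5 at 24 months. At 3 months Hsd11b2 and Aqp2 were both highest in replicate 6, while Hsd11b2 was lowest in replicate 9 and Aqp2 in replicate 7. The part of these cells in the Hsd11b2 values was not tested. Which piece of each kidney entered a library is not given in the sources used here. In bulk kidney RNA fewer cells of a type and less RNA per cell cannot be told apart. Hsd11b1, which regenerates active corticosterone, had means of 17.7 ± 8.87, 15.4 ± 4.62 and 15.2 ± 1.05 FPKM and did not pass (-0.11 at 24 against 3 months, limma adjusted p = 0.857).

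**Figure D4:**
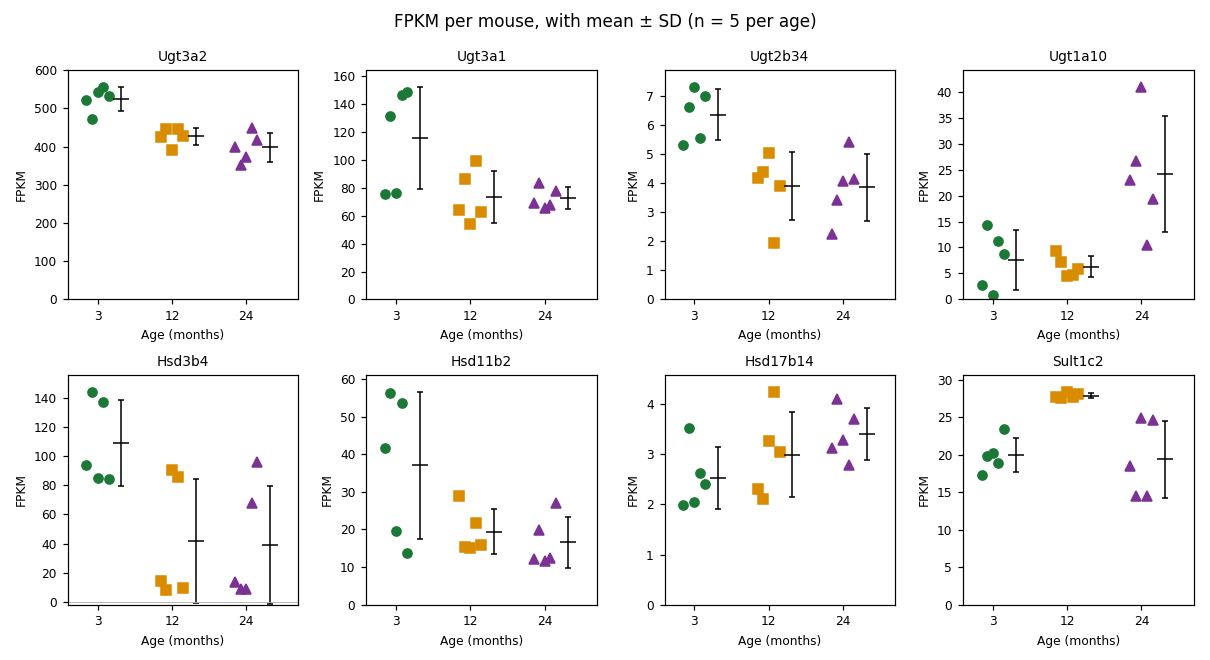
FPKM by mouse at 3, 12 and 24 months for Ugt3a2, Ugt3a1, Ugt2b34, Ugt1a10, Hsd3b4, Hsd11b2, Hsd17b14 and Sult1c2, with the mean and SD of 5 mice beside the points. Hsd3b4 splits into a high and a low range within both older ages, and Sult1c2 is narrowly high at 12 months (27.5 to 28.4 FPKM).

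The Hsd17b enzymes interconvert active and weak sex steroids, and several also act on fatty acids. Hsd17b14, an oxidising enzyme of kidney, measured 1.99, 3.52, 2.06, 2.64 and 2.40 FPKM at 3 months and 3.12, 4.11, 3.29, 2.79 and 3.71 at 24 months. The ages overlapped through replicate 6 of the young mice, and the fold change of 0.33 (SE 0.13, limma adjusted p = 0.283) did not pass when libraries were centred on their median. It also failed in 6 of 10 fits that left out 1 mouse (replicates 5, 7 and 9 at 3 months, replicates 32, 33 and 35 at 24 months). Hsd17b11, a lipid droplet enzyme, measured 82.6, 34.6, 27.1, 41.4 and 52.1 FPKM at 3 months, 57.3, 60.3, 69.3, 71.7 and 61.7 at 12 months and 53.1, 49.9, 45.1, 23.1 and 55.4 at 24 months. The 24-month mice all lay below the 12-month mice (0.573% of all genes), with a fold change of -0.55 (SE 0.22, limma adjusted p = 0.747). The young mice spanned both groups. Hsd17b2, which inactivates estradiol and testosterone, was also lower at 24 than at 12 months (6.56 ± 1.79 to 4.33 ± 0.876 FPKM, -0.48, SE 0.18, limma adjusted p = 0.747). Neither passed in one fit of all 15 mice, Hsd17b11 did not pass without replicate 19 or 20 at 12 months, and Hsd17b2 passed in 5 of 10 fits that left out 1 mouse (not without replicate 18, 19 or 20 at 12 months or 31 or 34 at 24 months). In contrast, the peroxisomal Hsd17b4 held 54.0 ± 2.78, 57.0 ± 5.53 and 58.3 ± 2.55 FPKM and the mitochondrial Hsd17b10 held 39.1 ± 3.97, 40.8 ± 5.19 and 34.7 ± 5.51 (SD, n = 5 each), and neither passed in any comparison.

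The splice forms of Ugt3a2 did not move together. The annotated 7-exon transcript ENSMUST00000072403 measured 236, 267, 329, 285 and 287 FPKM at 3 months, 171, 171, 108, 213 and 94.7 at 12 months and 147, 99.3, 152, 145 and 85.2 at 24 months, without overlap between the young and either older group. Its log2 fold change at 24 against 3 months was -1.18 (SE 0.21, limma adjusted p = 0.179), and its part of the gene went from 53.5% at 3 months to 35.5% and 31.6%. An assembled 6-exon form was 201 ± 27.7, 198 ± 46.5 and 189 ± 44.0 FPKM at the 3 ages (-0.11, limma adjusted p = 0.858). An assembled 8-exon form that begins upstream, at position 9330179 of chromosome 15, was 1.58, 0.762, 1.82, 3.78 and 1.68 FPKM at 3 months and 22.2, 54.5, 7.19, 19.5 and 5.43 at 24 months (2.61, SE 0.55, limma adjusted p = 0.238), and every old mouse lay above every young one. Transcripts of one gene are estimated from the same reads and are not independent. The share of all transcripts that separated by age without overlap was not counted.

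Of 189 member transcripts tested at 24 against 3 months, 7 were called, 2 higher (0.465% of all transcripts) and 5 lower (0.33%), and none had an adjusted p under 0.05 (0.0192%). The other higher one was the main transcript of Ugt1a10 (1.97, limma adjusted p = 0.540). The other lower ones were that of Hsd11b2 (-1.23, limma adjusted p = 0.515) and 3 of Hsd3b4 (-1.81 to -2.14, adjusted p of 0.428 or more). At 12 against 3 months 2 transcripts were called higher (0.466%) and 3 lower (0.317%), and at 24 against 12 months 2 higher (0.186%) and 0 lower (0.216%), none with an adjusted p under 0.05 (0.00481% and 0.00559% of all transcripts). The 3 Hsd3b4 transcripts kept their proportions, with ENSMUST00000196861 at 43.5, 45.8 and 41.5% of the gene at the 3 ages.

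Circular RNA of 9 circles was assigned to member genes, out of 11929 circles, and was tested with edgeR on rounded estimated counts. All 9 spans lay within the Ugt, Sult or Hsd loci of GRCm38. At 24 against 3 months 3 of 9 passed, 1 higher (14.6% of all circles) and 2 lower (14.2%), and all 3 had an adjusted p under 0.05 (13.3% of all circles). The higher one was an intronic circle of Hsd3b3 (ciRNA488, chr3:98743988-98753310, minus strand). It measured 105, 42.4, 55.2, 80.7 and 73.2 counts scaled to the library total (CPM) at 3 months, 109, 114, 139, 133 and 192 at 12 months and 217, 185, 225, 215 and 171 at 24 months. Young mice lay below all older mice, and the log2 fold change was 0.90 at 12 months (edgeR adjusted p = 0.0288) and 1.43 at 24 months (edgeR adjusted p = 0.00121), beside 0.18 and 0.35 for the linear host.

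The lower ones came from Ugt8a, the ceramide galactosyltransferase of myelin and kidney glycolipids, and from Ugt3a2. The Ugt8a circle (circRNA954) measured 139, 119, 152, 123 and 140 CPM at 3 months and 81.1, 116, 91.5, 77.2 and 105 at 24 months without overlap. Its log2 fold change was -0.59 (edgeR adjusted p = 0.00885), beside -0.24 for its linear host, which did not pass. The Ugt3a2 circle (circRNA9429) was lower by less (-0.34, edgeR adjusted p = 0.0365), beside -0.40 for its linear host. A circle of Hsd3b4 (circRNA6763) measured 69.7, 148, 37.9, 95.5 and 38.3 CPM at 3 months and 71.9, 60.3, 61.3, 51.7 and 107 at 24 months, and its change of -0.22 (edgeR adjusted p = 0.709) stood beside -2.14 for the linear gene. At 12 against 3 months 1 circle was higher (12% of all circles) and 2 were lower (11.7%), with 1 adjusted p under 0.05 (6.63%), and at 24 against 12 months 1 was higher (8.01%) and 2 were lower (8.88%), with no adjusted p under 0.05 (0.738%). A circle of 1 exon assigned to Ugt1a7c spanned positions 88138473 to 88139331 (859 bases). It ended on the last base of the private exon of Ugt1a6a, which has 858 private coding bases, so the host of this circle is uncertain. Linear and circular values were normalised separately. The share of all circles that separated by age without overlap was not counted.

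**Figure D5:**
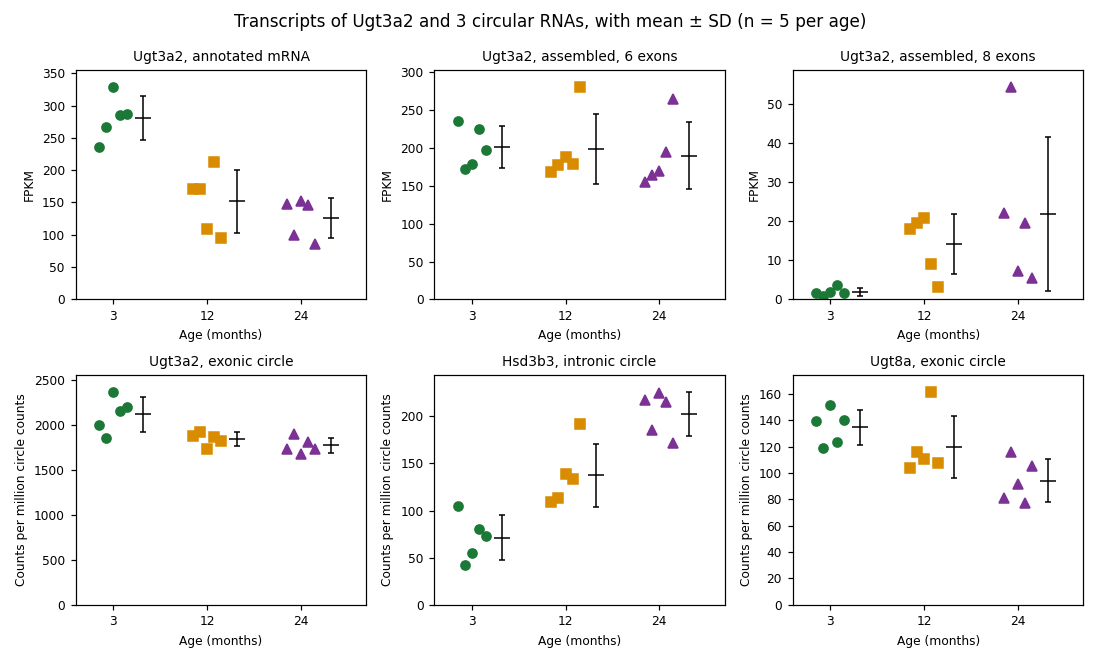
Transcripts of Ugt3a2 in FPKM (upper panels) and the circles of Ugt3a2, Hsd3b3 and Ugt8a in CPM (lower panels), by mouse and age, with the mean and SD of 5 mice. The annotated Ugt3a2 transcript is lower in all older mice, and the intronic circle of Hsd3b3 is at 171 to 225 CPM at 24 months against 42.4 to 105 at 3 months.

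Genes of cofactor supply and of enzymes that act in reverse were examined as a list of 17, of which 16 were in the table. At 24 against 3 months none was higher (11.4% of all genes) and 3 were lower (3.47%), with a median of 0.01 beside 0.02 for all genes. Slc35b1, an ATP and ADP exchanger of the endoplasmic reticulum, fell from 15.9 ± 0.805 to 12.3 ± 0.800 FPKM (-0.35, SE 0.06, limma adjusted p = 0.0336). H6pd, which makes the NADPH that Hsd11b1 uses, went from 18.4 ± 2.09 to 14.1 ± 0.790 (-0.35, limma adjusted p = 0.0722). For Slc35b1 and H6pd the ages did not overlap (0.91% of all genes). Gusb, the lysosomal enzyme that removes glucuronic acid, was at 8.65 ± 1.36 and 7.01 ± 0.621 FPKM (-0.26, limma adjusted p = 0.296). The cofactor genes Ugdh, Ugp2, Papss1 and Papss2 did not pass at 24 against 3 months.

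Of 23 tested genes of steroid synthesis and reduction outside the 3 families, 3 were higher and 2 lower, with a median of 0.00. Beside this and the next lists, 11.4% of all genes were higher and 3.47% lower at 24 against 3 months. Akr1c13 went from 4.31 ± 0.837 to 9.73 ± 0.840 FPKM (1.03, SE 0.11, limma adjusted p = 0.00884). Akr1c12 went from 1.24 ± 0.119 to 2.47 ± 0.225 (0.63, SE 0.09, limma adjusted p = 0.0178), and both were without overlap (3.82% of all genes). These aldo-keto reductases act on the same kinds of carbonyl group. Star, the cholesterol carrier of mitochondria, was higher (0.52, limma adjusted p = 0.0984), and Akr1c14 (-0.46) and Akr1c18 (-1.15) were lower, with adjusted p of 0.272 and 0.206. Of 16 steroid receptors and corticosteroid target genes, 2 were higher and 2 lower with a median of -0.14. The mineralocorticoid receptor Nr3c2 went from 3.63 ± 0.702 to 5.76 ± 0.871 FPKM without overlap (0.55, limma adjusted p = 0.0910), and the glucocorticoid targets Fkbp5 (12.5 ± 4.87 to 4.97 ± 1.46, -1.12, limma adjusted p = 0.102) and Zbtb16 (19.1 ± 6.11 to 7.00 ± 3.63, -1.43, limma adjusted p = 0.104) were lower. Esr2 was higher at under 0.2 FPKM. Of 15 nuclear receptors and factors of drug metabolism, 3 were higher and 0 lower (median 0.11), among them Nr1i2 (1.74 ± 0.581 to 2.59 ± 0.396 FPKM, 0.41, limma adjusted p = 0.253) and Nr1i3.

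Markers of kidney segments and of other cell types were measured beside the members. For comparison, 11.4% of all genes were higher and 3.47% lower at 24 against 3 months. Of 6 markers of the first proximal segments 2 were lower at 24 against 3 months, Slc5a2 (-0.56, limma adjusted p = 0.0703) and Slc5a12 (-0.43, limma adjusted p = 0.270), and the summed level ranged from 1611 to 1988, 1667 to 2091 and 1473 to 1893 FPKM at the 3 ages. Of 5 markers of the last proximal segment 1 was lower, Slc5a10 (-0.48, limma adjusted p = 0.269), with sums of 530 to 837, 556 to 775 and 551 to 710 FPKM. None of 5 markers of thick limb and distal convoluted tubule passed. Adrenal cortex markers, measured because that tissue also holds Hsd3b RNA, summed to 1.89 to 6.37, 2.46 to 3.27 and 2.58 to 4.69 FPKM, with 2 of 8 higher (Star and Mc2r) and 1 lower (Akr1b7). The defining adrenal enzymes were at or near 0 in every mouse, with maxima of 0.0303 FPKM for Cyp11a1 and 0.0401 for Cyp21a1, and Cyp11b1, Cyp11b2 and Nr5a1 were lower still. Of 7 liver markers 2 were higher (Alb and Apob) and 1 was lower (Ttr), with sums of 104 to 153, 126 to 145 and 141 to 174 FPKM, and Cyp3a11 reached at most 0.0802 FPKM. B and plasma cell markers were higher for 4 of 5 genes, with sums of 1.19 to 3.85, 3.38 to 20.6 and 4.44 to 12.9 FPKM, T cell markers for 1 of 5 and macrophage markers for 0 of 6. The part of these cells in the values of the Ugt, Sult and Hsd genes was not tested.

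Of 15 circadian clock genes 7 were higher (11.4% of all genes) and 4 lower (3.47%) at 24 against 3 months, 5 of them with an adjusted p under 0.05 (1.22%), and the median was 0.42. The activator Arntl went from 11.9 ± 3.30 to 1.45 ± 1.35 FPKM (-2.51, limma adjusted p = 0.0146) and the output factor Dbp from 1.17 ± 0.891 to 12.3 ± 6.84 (2.60, limma adjusted p = 0.0216). The hour at which each kidney was taken is not given in the sources used here, so age and hour of sampling cannot be told apart for genes with a daily rhythm.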

How the data were processed

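Reads of 15 kidney libraries were trimmed by the authors with Cutadapt and mapped to GRCm38 with Ensembl annotation. The paper names Bowtie2 and HISAT2, the submitters' processing notes name TopHat and TopHat2, and the labels give rRNA depletion with a stranded kit where the paper gives poly(A) selection. The deposited FPKM and mean coverage per transcript came from StringTie, and coverage was used only to obtain the aligned bases of each library. The deposited estimated counts of circular RNAs, of which 83.6% to 94.6% per mouse were not whole, were rounded for testing, and how the authors called circles is not given in the sources used here. Totals of these counts ranged from 6974494 to 9889971 per mouse. Low FPKM values were not converted to reads, so no counting interval is given, and the spread between 5 mice sets the precision. Sample titles carry one age prefix throughout, and ages were taken from the age labels.

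FPKM of transcripts that matched the annotation or were assembled splice forms or overlaps of a gene on its strand were summed per gene. The p-values compare separate mice. limma 3.58.1 (lmFit, eBayes with trend) in R 4.3.3 was run on log2(FPKM + 1) with the mice of both ages compared, on all genes above 0 in at least 1 of them, with Benjamini-Hochberg adjustment over the whole table. Transcripts were fitted the same way. Circles above 0 in at least 5 of 10 mice were tested with the edgeR 4.0.16 quasi-likelihood test with TMM, with DESeq2 1.42.0 as an alternative. The methods were tested on simulated data. The named members are those called in any comparison, those passing at 24 against 3 months with at least 1 FPKM, and the 4 highest of each family, and of the lists those passing at 24 against 3 months with at least 1 FPKM. Other members that passed are named to complete a count. Ugt1a1, Ugt1a2, Hsd3b3, Hsd11b1, Aqp2, Odc1 and Slco1a1 were picked outside this rule, with their values already known. The members, lists and tests were chosen with earlier results of these data known. Cyp19a1 and Sts had no value in the table. Columns of the authors' own comparisons, which hold fold changes and p-values, were not used. One gene of the lists is not reported here. Sequences and coordinates came from GENCODE transcripts and RefSeq promoters of GRCm38.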

Additional observations from a re-analysis of the deposited data

Results flagged for a closer look

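Of 96 groups of 5 mice examined for the 16 named members, the 7 called transcripts and the 9 circles, 5 held 1 mouse far from the other 4 by the test of Dixon, whose 95% limit chance passes in about 1 of 20 groups. Ugt1a7c was at 136 FPKM in replicate 20 at 12 months, and the other mice of that age lay between 52.5 and 55.1. Sult1b1 was at 0.610 FPKM in replicate 5 at 3 months, below the next mouse at 1.51. The assembled Hsd3b4 transcript MSTRG.23073.1 was at 45.9 FPKM in replicate 6 at 3 months, above the next mouse at 27.5. Among circles, circRNA944 of Hsd3b4 was at 26.9 CPM in replicate 31 at 24 months against 18.2 in the next mouse, and circRNA954 of Ugt8a was at 161 CPM in replicate 20 at 12 months against 116. Replicate 20 was the outlying mouse in 2 of these 5 groups.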

How the results depend on the processing

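No paired analysis was possible because the replicate numbers 5 to 9, 17 to 21 and 31 to 35 are not shared between ages. The number of passing members was 8 at 24 against 3 months, 7 at 12 against 3 months, 8 at 24 against 12 months and 10 over the 3 ages. With an adjusted p under 0.05 required, these counts were 0, 1, 0 and 0, and called transcripts went from 7 to 0. Median centring gave 14 at 12 against 3 months and one fit of all 15 mice gave 5 at 24 against 12 months. Called transcripts numbered 14 with a pseudocount of 0.1 and 12 with TPM, settings under which 4.89% and 3.42% of all transcripts were called. The cause of these shifts was not tested. Leaving out 1 mouse at a time gave 7 to 11, 5 to 8, 4 to 9 and 7 to 12 passing members, 7 to 10 called transcripts and 3 to 5 passing circles. At 24 against 3 months Hsd3b4 (-2.63 to -1.79), Ugt1a10 (1.33 to 2.11), Ugt2b34 (-0.73 to -0.49), Ugt3a2 (-0.44 to -0.36) and Sult2a3 passed at an unadjusted p under 0.05 without any one mouse and under each alternative way of computing values run for them, though none had an adjusted p under 0.05. With annotated transcripts alone Ugt3a2 was at -0.81. Ugt3a1 passed in the same way (-0.74 to -0.50) except with annotated transcripts alone. Hsd11b2 (-1.29 to -0.80) passed in 4 of 10 leave-outs. The sign changed with the mouse left out for Hsd17b11 (-0.20 to 0.20), Sult1b1 (-0.19 to 0.042), Sult1c2 (-0.16 to 0.024), Sult1d1 (-0.29 to 0.14) and Ugt1a7c (-0.49 to 0.23), none of which passed at 24 against 3 months, and for Ugt1a7c with annotated transcripts alone (0.18). How far depth limits the 14 members under 0.1 FPKM was not measured.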
